A study of Mus musculus with 6 samples.

Results

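The genes described here are 8 transcription factors that specify midbrain dopamine neurons: Nr4a2 (Nurr1), Pitx3, En1, En2, Foxa1, Foxa2, Lmx1a and Lmx1b. They were chosen by symbol and not by a rule on their values, although earlier results of these data were known. All 8 were found among 23337 gene symbols of the expression table. RNA was compared between 3 libraries of Sox6+ and 3 libraries of Sox6- dopaminergic neurons. Both came from the substantia nigra pars compacta, or SNc, a midbrain nucleus that innervates the dorsal striatum. The question was how these neuronal populations differ in gene expression. Sox6+ neurons were sorted by GFP and Sox6- neurons by mCherry, and every animal behind both groups was an adult C57BL/6 mouse with the alleles Sox6-FSF-Cre, Th-2A-Flpo and RC-Frepe. In this intersectional design Flp recombinase comes from the Th locus, Cre from the Sox6 locus only after Flp has acted, and the reporter turns from mCherry to GFP once both have acted. A recombined reporter stays on, so the colour records past as well as present activity of the driver genes. Libraries carry the numbers 103, 825 and 1211 in each group. Whether each library is a separate animal or a pool is not stated in the labels, so p-values here reflect only the spread among the 6 samples, which may be technical.

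Floor plate progenitors of the ventral midbrain express Foxa1, Foxa2, Lmx1a and Lmx1b, which specify the dopaminergic fate. The nuclear receptor Nr4a2 and the homeodomain protein Pitx3 then switch on genes of dopamine synthesis and transport in postmitotic neurons, and En1 and En2 are needed for the survival of these neurons. Several of these factors stay on in the adult SNc, where loss of Nr4a2, Foxa1 with Foxa2, or En1 is known from mice to erode dopaminergic properties.

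The libraries held from 10397924 to 12952768 reads in genes. Sox6, the gene that defines the sort, had values of 389 to 841 in Sox6+ libraries and 18.1 to 104 in Sox6- libraries. Markers of dopamine neurons (Th, Ddc, Slc6a3 and Slc18a2) were present in every library, with a summed value of 97422 to 192863 in Sox6+ and 35149 to 122517 in Sox6- libraries. GABAergic markers (Gad1, Gad2 and Slc32a1) summed to 6668, 5.69 and 1472 in Sox6+ libraries 103, 825 and 1211, and to 11532, 1181 and 6300 in Sox6- libraries 103, 825 and 1211. Sox6+ library 825 stood apart, with macrophage and microglial markers summing to 27940 against 9.27 to 77.9 in the other 5 libraries, Lyz2 at 26494, and C1qa and C1qb at 0 there. Oligodendrocyte markers summed to 1972 in that library, of which Mbp gave 1944, against 123 to 248 in the other 5 libraries. Their part in the results below was not tested. In such bulk samples, fewer cells of a type and less RNA per cell cannot be told apart.

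Of the 7 factors with a mean of at least 10, the level required for testing, 0 were called higher and 0 lower in Sox6+ neurons (limma, Benjamini-Hochberg adjusted p under 0.05 over 13175 genes), where 0.304% of tested genes were called in either direction. Sox6 itself, with a log2 difference of 3.66, was not called by this test either (limma adjusted p = 0.0528). The lack of calls therefore does not show equal levels of the factors. At an unadjusted p under 0.05 Foxa1, Pitx3 and En1 were higher in Sox6+ neurons, 3 of 7 where 5.21% of tested genes were, and 0 of 7 were lower, where 6.17% of tested genes were (11.4% in either direction). The edgeR quasi-likelihood test and DESeq2 on the recovered reads also called 0 of the 7, where DESeq2 called 1.31% of genes with an adjusted p higher and 1.66% lower. The log2 differences of the 7, Sox6+ minus Sox6-, ran from -0.50 for Lmx1a to 1.59 for Foxa1, with 5 positive, 2 negative and a median of 0.21, beside 48.1% positive and a median of -0.02 over all tested genes. Without Sox6- library 1211, 3 were positive and 4 negative with a median of -0.029, and without Sox6+ library 1211 the median was 0.81. All values are normalized read counts (reads divided by a size factor per library), and differences are on the log2(value + 1) scale.

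Promoter windows of Foxa1, Pitx3 and En1, the members with an unadjusted p under 0.05, show the bases around a RefSeq start of each gene. Each runs from 250 bases before to 50 bases after a RefSeq start on GRCm38.p6, 5′ to 3′ on the gene's strand, at chr12:57546062-57546361 (minus strand) for Foxa1, chr19:46148276-46148575 (minus strand) for Pitx3 and chr1:120602237-120602536 (plus strand) for En1. Capitals mark a match to a searched motif.
Foxa1: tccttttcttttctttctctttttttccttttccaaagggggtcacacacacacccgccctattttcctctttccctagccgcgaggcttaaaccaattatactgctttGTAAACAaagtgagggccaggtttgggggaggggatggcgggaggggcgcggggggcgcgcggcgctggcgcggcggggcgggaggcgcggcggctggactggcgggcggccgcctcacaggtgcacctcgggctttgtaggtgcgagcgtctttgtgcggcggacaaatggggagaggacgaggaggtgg
Pitx3: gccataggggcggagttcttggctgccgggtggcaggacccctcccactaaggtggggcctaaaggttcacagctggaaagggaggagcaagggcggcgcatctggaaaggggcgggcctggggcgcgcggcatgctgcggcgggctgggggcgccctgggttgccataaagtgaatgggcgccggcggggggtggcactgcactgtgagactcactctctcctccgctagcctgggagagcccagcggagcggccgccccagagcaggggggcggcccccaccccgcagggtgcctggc
En1: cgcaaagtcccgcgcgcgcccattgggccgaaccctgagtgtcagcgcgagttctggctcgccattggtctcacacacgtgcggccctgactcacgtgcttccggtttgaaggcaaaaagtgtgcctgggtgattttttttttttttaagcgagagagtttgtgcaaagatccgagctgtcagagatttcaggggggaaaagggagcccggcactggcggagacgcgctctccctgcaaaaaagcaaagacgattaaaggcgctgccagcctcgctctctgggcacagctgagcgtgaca
Searched on both strands were AAAGGTCA (the NBRE bound by Nr4a2), TAATCC (bound by Pitx factors), TGTTTAC (bound by Foxa factors) and TAATTA (bound by engrailed and Lmx1 homeodomains). In 9 windows of 7 members there was 1 match, TGTTTAC read on the opposite strand, starting 141 bases before the RefSeq start of Foxa1. The Foxa1 window and this match lie inside the GENCODE M21 span of the gene, from 57540628 to 57546916. By that annotation the match is therefore not upstream of Foxa1. Of 32544 distinct promoter windows of the same length, 3.66% held that motif, 1.52% the NBRE, 7.06% TAATCC and 5.29% TAATTA. Repeated sequences and the windows of a chromosome that holds none of the members were left out of these shares. A match is a description of the letters and not a binding site.

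**Figure D1:**
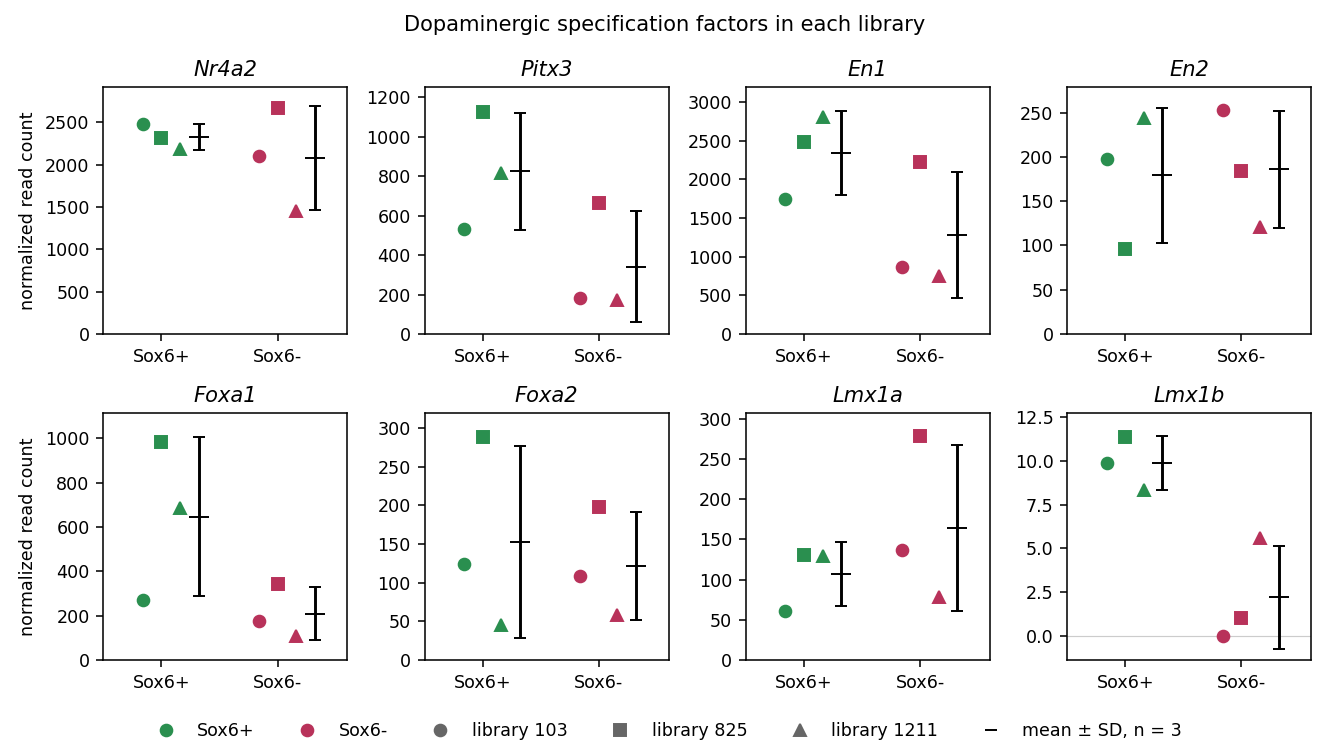
Normalized read count (vertical axes, linear) of the 8 factors in Sox6+ libraries (green) and Sox6- libraries (red), with symbols for library numbers and a bar for the mean ± SD (n = 3). For every gene except Lmx1b the groups overlap, and Sox6- library 825 lies above the other Sox6- libraries for 6 of the 8 genes.

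Nr4a2, the orphan nuclear receptor required for the dopaminergic transmitter identity, varied least over the libraries among the 7 tested factors. Its values were 2479, 2316 and 2179 in Sox6+ libraries 103, 825 and 1211, and 2098, 2673 and 1449.6 in Sox6- libraries 103, 825 and 1211. The Sox6+ values lie close together and inside the range of the Sox6- values. The log2 difference was 0.21 ± 0.21 (standard error), with a 95% interval of -0.27 to 0.69 (limma adjusted p = 0.743). Nr4a2 lies on the minus strand of chromosome 2, from 57106830 to 57124003 (GRCm38).

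Pitx3, a homeodomain factor needed for SNc neurons and for their Th expression, had values of 534, 1126 and 817 in Sox6+ libraries 103, 825 and 1211, and 183, 666 and 173 in Sox6- libraries 103, 825 and 1211. Sox6- libraries 103 and 1211 are low, and Sox6- library 825 lies above Sox6+ library 103, so the groups overlap. The means were 826 ± 296 in Sox6+ and 340.5 ± 282 in Sox6- neurons (SD, n = 3 each), and the log2 difference was 1.51 ± 0.54 (standard error, 95% interval 0.26 to 2.76, limma adjusted p = 0.361). The exact two-sided permutation p was 0.2, where 0.1 is the smallest that 3 libraries against 3 can give. Pitx3 lies on the minus strand of chromosome 19 from 46135685 to 46148326. It overlaps Elovl3, a fatty acid elongase gene on the opposite strand, by 10 of its 1526 exon bases, and Elovl3 had values of 64.1 to 153 in Sox6+ and 24.9 to 91.6 in Sox6- libraries.

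En1, an engrailed homeodomain factor, had values of 1742, 2481 and 2807 in Sox6+ libraries 103, 825 and 1211, and 863, 2219.6 and 749 in Sox6- libraries 103, 825 and 1211. As for Pitx3, Sox6- libraries 103 and 1211 are low while library 825 falls within the Sox6+ range. The log2 difference was 1.03 ± 0.41 (standard error, 95% interval 0.06 to 1.99, limma adjusted p = 0.414). En2, its paralogue, had values of 197, 95.7 and 244 in Sox6+ libraries 103, 825 and 1211, and 252, 184 and 121 in Sox6- libraries 103, 825 and 1211. The En2 groups lie almost wholly on each other, and its lowest value is in Sox6+ library 825, where En1 is high. Its log2 difference was -0.09 with a 95% interval of -1.05 to 0.86 (limma adjusted p = 0.953). It was 0.30 without Sox6+ library 825 and 0.16 without Sox6- library 103. The log2 ratio of En1 to En2 was 3.78 ± 0.81 in Sox6+ and 2.66 ± 0.91 in Sox6- libraries (SD, n = 3 each), with overlapping groups and a difference of 1.12 (exact two-sided permutation p = 0.3). That difference was 0.67 without Sox6+ library 825 or without Sox6- library 103. On chromosome 1, En1 occupies bases 120602418 to 120607992 (plus strand), and on chromosome 5, En2 occupies bases 28165694 to 28172166 (plus strand).

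Of the forkhead pioneer factors, Foxa1 had the largest log2 difference of the 7 tested members. Its values were 270.3, 985 and 684 in Sox6+ libraries 103, 825 and 1211, and 177, 342 and 109 in Sox6- libraries 103, 825 and 1211. Sox6+ libraries 825 and 1211 lie above every Sox6- library, while Sox6+ library 103 lies below Sox6- library 825. The means were 646 ± 359 in Sox6+ and 209 ± 120.3 in Sox6- neurons (SD, n = 3 each). On the log2(value + 1) scale the difference was 1.59 (3.02-fold), with a standard error of 0.55 and a 95% interval of 0.33 to 2.86 (limma adjusted p = 0.336). In the authors' deposited table, made with DESeq2, Foxa1 had an adjusted p of 0.0549 and was again the member closest to the threshold, followed by Pitx3 at 0.200 and En1 at 0.281 in that table, where 2.83% of genes with an adjusted p were called.

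Foxa2 had values of 124, 288 and 45.3 in Sox6+ libraries 103, 825 and 1211, and 108, 197 and 58.4 in Sox6- libraries 103, 825 and 1211. In both groups library 825 is highest and library 1211 lowest, and the Sox6- values lie inside the Sox6+ range. Its log2 difference was 0.13 with a wide 95% interval of -1.43 to 1.69 (limma adjusted p = 0.963), and it was -0.52 without Sox6+ library 825 and -0.31 without Sox6- library 1211. The log2 ratio of Foxa1 to Foxa2 inside each library, which does not depend on library size, was 1.115, 1.77 and 3.89 in Sox6+ libraries 103, 825 and 1211, and 0.70, 0.79 and 0.88 in Sox6- libraries 103, 825 and 1211. Every Sox6+ library therefore held more Foxa1 per Foxa2 than every Sox6- library. The share of other gene pairs that separate in this way was not determined. The ratio differed by 1.47 on the log2 scale (exact two-sided permutation p = 0.1, the lowest this design allows, and 0.3 adjusted over 3 ratios of paralogues), and by 0.65 without Sox6+ library 1211. Per kilobase of exon, Foxa1 made up 60.8%, 70.9% and 91.5% of Foxa1 plus Foxa2 in Sox6+ libraries 103, 825 and 1211, and 53.7%, 55.3% and 56.95% in Sox6- libraries 103, 825 and 1211. Foxa1 lies on the minus strand of chromosome 12 from 57540628 to 57546916, and Foxa2 on the minus strand of chromosome 2 from 148042877 to 148046969.

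The LIM homeodomain factors had the lowest mean levels of the 8 per kilobase of exon. Lmx1a, which directs floor plate cells to the dopaminergic fate, had values of 61.2, 131 and 129 in Sox6+ libraries 103, 825 and 1211, and 137, 279 and 77.9 in Sox6- libraries 103, 825 and 1211. Its highest value is in Sox6- library 825 and its lowest in Sox6+ library 103, with the groups overlapping. The log2 difference was -0.50 ± 0.52 (standard error, 95% interval -1.67 to 0.66, limma adjusted p = 0.741), and it was -0.030 without Sox6- library 825. Lmx1a lies on the plus strand of chromosome 1 from 167689237 to 167848741.

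Lmx1b, its close relative with a role in dopaminergic and serotonergic neurons, lay under the level required for testing, with a mean of 6.02 over the 6 libraries. It had 10, 10 and 9 reads in Sox6+ libraries 103, 825 and 1211, and 0, 1 and 6 reads in Sox6- libraries 103, 825 and 1211. It is the one member of the 8 whose Sox6+ values all lie above its Sox6- values, as do 6.29% of all genes with a read. The 29 reads in Sox6+ libraries against 7 in Sox6- libraries gave a ratio of 4.12 per read in genes, with an exact 95% binomial interval of 1.76 to 11.1 that covers counting error only. When all genes with a read were tested, the limma adjusted p was 0.520. The serotonergic markers Tph2, Slc6a4 and Fev summed to 24.95 to 55.2 in Sox6+ and 0 to 42.7 in Sox6- libraries, with Fev at 0 in 4 of the 6 libraries. Lmx1b lies on the minus strand of chromosome 2 from 33560965 to 33640511.

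Levels of different genes can be compared per kilobase of annotated exon (GENCODE M21). On this scale En1 came first in Sox6+ neurons at 893 ± 208, before Nr4a2 at 573 ± 37.0 and Pitx3 at 541 ± 194, which lay within each other's spread (SD, n = 3 each, normalized read count per kilobase). In Sox6- neurons Nr4a2 at 511 ± 151 and En1 at 487 ± 312 lay within each other's spread, above Pitx3 at 223 ± 185. Foxa1 came next by its means, at 194 ± 108 per kilobase in Sox6+ and 62.9 ± 36.2 in Sox6- neurons, although En2 lay above it in Sox6- libraries 103 and 1211. Foxa2, En2 and Lmx1a followed, at 64.4 ± 52.3, 50.6 ± 21.4 and 31.6 ± 11.7 per kilobase in Sox6+ and 51.2 ± 29.7, 52.5 ± 18.6 and 48.5 ± 30.4 in Sox6- neurons, and neighbours among these genes, and Foxa1 with them in Sox6- neurons, did not differ beyond their spread. Lmx1b came last in every library, at 2.02 ± 0.315 per kilobase in Sox6+ and 0.449 ± 0.608 in Sox6- neurons. En1, Nr4a2 and Pitx3 were the 3 highest of the 8 in all 6 libraries, although their order changed.

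**Figure D2:**
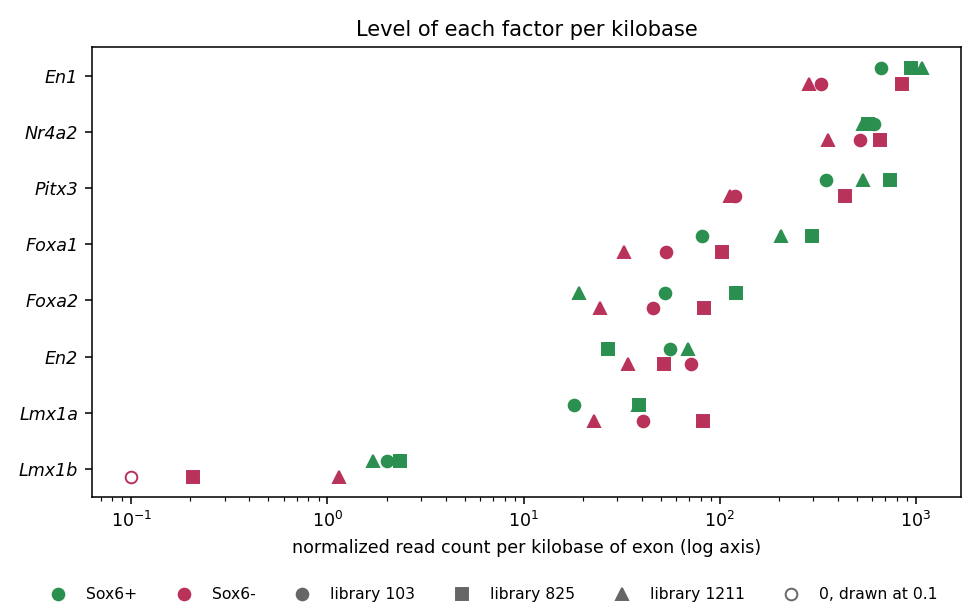
Normalized read count per kilobase of exon (horizontal log axis) of each factor, with Sox6+ libraries in green above Sox6- libraries in red and symbols for the library numbers. En1, Nr4a2 and Pitx3 form the upper group in every library and Lmx1b lies lowest, with its 0 in Sox6- library 103 drawn as an open symbol.

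The profiles of Pitx3, En1 and Foxa1 over the libraries lay near those of some genes of the dopaminergic phenotype. Likeness was measured as the root-mean-square difference between log2 profiles over the 6 libraries, each centred on its mean, among 9665 genes with a mean of at least 50. The gene with the profile most like Pitx3 was Slc10a4, a synaptic vesicle transporter of monoaminergic and cholinergic neurons (difference 0.0993 in log2 units), followed by Ddc, the decarboxylase that makes dopamine (0.123), and Chrna4, a nicotinic receptor subunit (0.171). The Pitx3 profile itself had a root-mean-square size of 1.03 log2 units. For En1, with a size of 0.74, the nearest genes were Cadps2, a priming factor for dense-core vesicles (0.0891), Th, tyrosine hydroxylase (0.195), and Vwc2l, a secreted protein gene (0.197). Foxa1 lay nearest to Fgl2 (0.264), Kcnj6, the GIRK2 potassium channel subunit of dopamine neurons (0.277), and Plin2, a lipid droplet protein (0.308). Among the members, Pitx3 and En1 differed by 0.349, Pitx3 and Foxa1 by 0.369 and En1 and Foxa1 by 0.506. En1 differed from Ddc by 0.272 and from Slc18a2 by 0.285, but from Slc6a3 by 0.586, more than from Nr4a2 (0.568).

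The other 4 compared members had other neighbours. Nr4a2, with a profile size of 0.28, lay nearest to Parn, a poly(A) ribonuclease (0.0756), Foxred1, a complex I assembly factor (0.0867), and Cttnbp2nl (0.0917). En2 lay nearest to Fam151b (0.128), the protease gene Mbtps2 (0.135) and the cohesin regulator Pds5a (0.153). Foxa2 lay nearest to Zfyve1 (0.266), the non-classical MHC class I gene H2-T23 (0.309) and Lrrc8c, a volume-regulated anion channel subunit (0.386), and Lmx1a to the neuropeptide gene Npw (0.248), Eif2c4, an Argonaute gene (0.262), and Prrg3 (0.270). The profile of Th differed from that of Nr4a2 by 0.630, of Lmx1a by 0.756, of Foxa2 by 0.888 and of En2 by 1.010, beside 0.299 for Pitx3 and 0.437 for Foxa1. These values describe 6 libraries that share their sort and protocol.

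**Figure D3:**
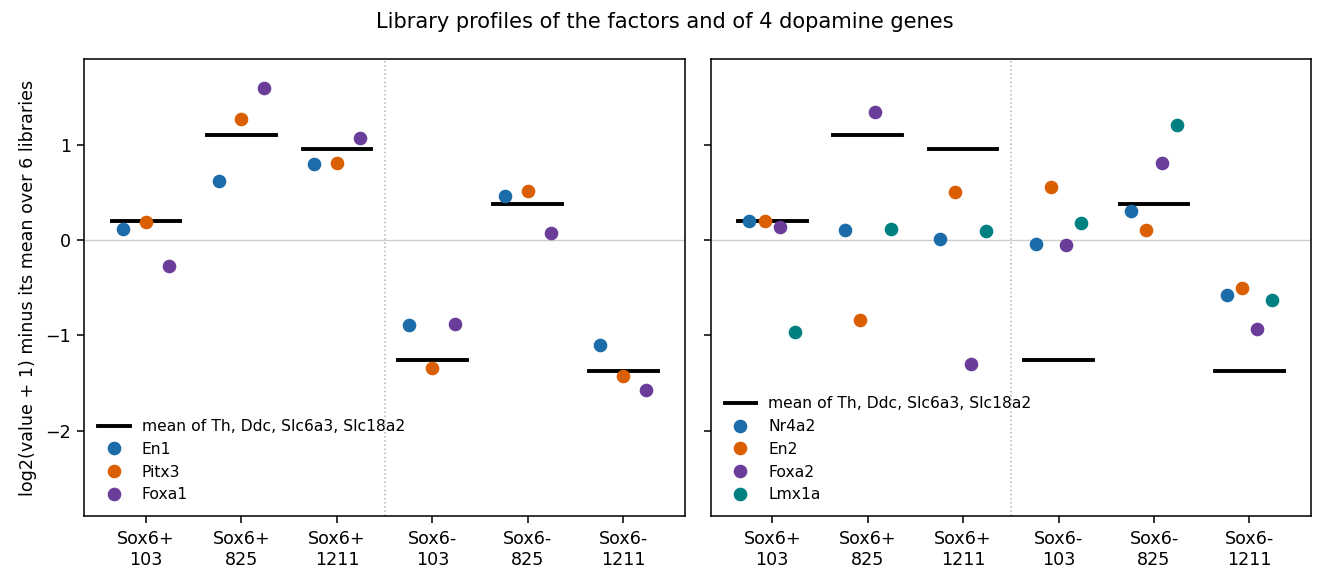
Log2(value + 1) of each factor minus its mean over the 6 libraries (vertical axis), with Sox6+ libraries left of Sox6- libraries and black bars for the mean of Th, Ddc, Slc6a3 and Slc18a2. The panels were composed after the values were seen: En1, Pitx3 and Foxa1 (left) follow the bars more closely, and Nr4a2, En2, Foxa2 and Lmx1a (right) lie far from them in several libraries.

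The members were also set against the dopamine genes of the same library. The mean log2 value of Th, Ddc, Slc6a3 and Slc18a2 was 14.50, 15.41 and 15.26 in Sox6+ libraries 103, 825 and 1211, and 13.05, 14.68 and 12.93 in Sox6- libraries 103, 825 and 1211. It differed by 1.51 between the groups, with Sox6- library 825 above Sox6+ library 103 (exact two-sided permutation p = 0.2), so a gene with equal levels in both groups would lie 1.51 lower in Sox6+ neurons relative to that mean. Pitx3 relative to it was -5.44, -5.27 and -5.59 in Sox6+ libraries 103, 825 and 1211, and -5.52, -5.30 and -5.50 in Sox6- libraries 103, 825 and 1211. These relative levels lie within -5.59 to -5.27 in all 6 libraries, while the values of Pitx3 itself spanned 173 to 1126. The difference was 0.01 (exact two-sided permutation p = 1.0), and for Foxa1 it was 0.09 (exact p = 0.9), with overlapping groups. Both values rest on the same 6 profiles as the likeness above and are no separate evidence of it.

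Lmx1a had the lowest difference relative to the dopamine genes among the 7 tested members. Its relative log2 level was -8.55, -8.37 and -8.24 in Sox6+ libraries 103, 825 and 1211, and -5.94, -6.55 and -6.63 in Sox6- libraries 103, 825 and 1211. The groups are tight and apart, with a difference of -2.01 that ran from -2.14 to -1.79 when single libraries were left out. The relative level of Foxa2 differed by -1.38 and that of En1 by -0.48, again with no overlap, and those of Nr4a2 and En2 by -1.30 and -1.60 with overlapping groups. The share of all tested genes with no overlap on this scale was not determined, so the separation is not read as particular to these members. The values of Foxa2, Nr4a2 and En2 lie near that of a gene with equal levels in both groups. Leaving out single libraries gave -1.85 to -0.60 for Foxa2, with the last value without Sox6+ library 1211, and -2.14 to -1.03 for En2, with the last value without Sox6+ library 825. For Lmx1a, Foxa2 and En1 the exact p of a two-sided permutation test was 0.1, the lowest this design allows, and 0.233 adjusted over 7 members, so none of these differences passed a threshold of 0.05.

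**Figure D4:**
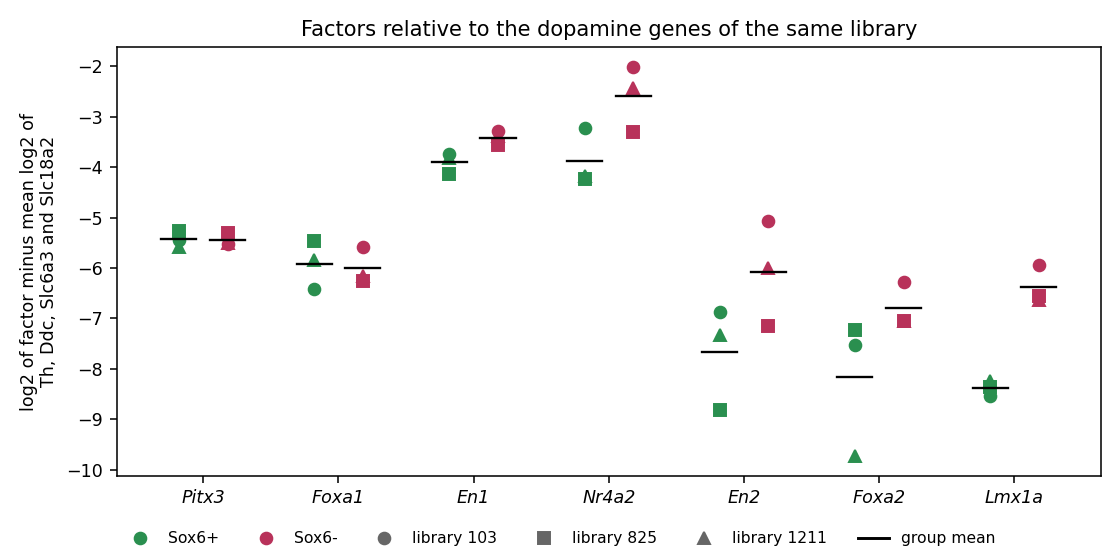
Log2(value + 1) of each factor minus the mean log2 of Th, Ddc, Slc6a3 and Slc18a2 in the same library (vertical axis), Sox6+ in green left of Sox6- in red, with bars for group means (n = 3). Pitx3 lies between -5.59 and -5.27 in all 6 libraries, and Lmx1a is separated between the groups by 2.01 log2 units.

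The differences depended on which libraries were compared. Without Sox6- library 825, where dopamine markers are high and GABAergic markers low for a Sox6- library, the log2 difference was 2.14 for Pitx3, 1.51 for En1 and 2.03 for Foxa1, with limma adjusted p of 0.0602, 0.0602 and 0.219. Without Sox6+ library 103, which has the most GABAergic and the least dopaminergic marker signal of the Sox6+ libraries, Foxa1 reached 2.13 with an adjusted p of 0.0688 (limma). Without Sox6+ library 825 the differences were 1.19 for Foxa1, 1.25 for Pitx3 and 0.97 for En1. Their limma adjusted p were 0.541, 0.561 and 0.592. Leaving out Sox6- library 1211 gave 1.202 for Foxa1, 1.173 for Pitx3 and 0.731 for En1. Here the limma adjusted p were 0.8301, 0.846 and 0.869. The part of the marker levels in these changes was not tested. Over each library left out in turn, the sign of these 3 genes and of Lmx1a did not change, while that of Nr4a2, En2 and Foxa2 did in at least 1 case.

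**Figure D5:**
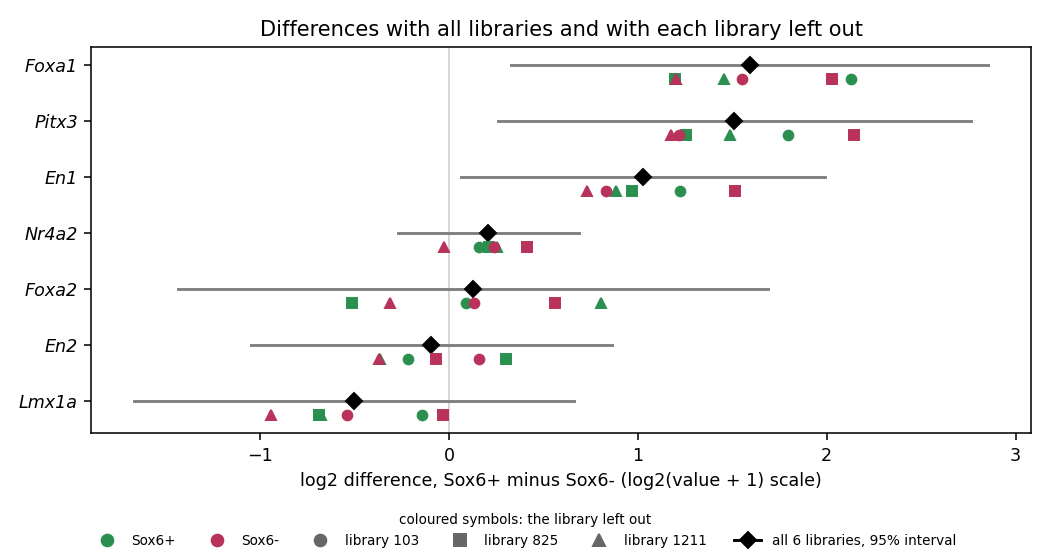
Log2 difference, Sox6+ minus Sox6- (horizontal axis), of the 7 tested factors with all 6 libraries (black diamonds, 95% interval) and with the library named by colour and symbol left out. Foxa1, Pitx3 and En1 stay above 0 throughout, between 0.73 and 2.14, and Nr4a2, Foxa2 and En2 lie on both sides of 0.

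Genes around these factors were described from 5 lists. The list of dopamine effector genes holds genes known to be regulated by Nr4a2 and Pitx3, and also enzymes of the tetrahydrobiopterin pathway. Their log2 difference was positive in 8 of 9, with a median of 1.16. With edgeR the median was 0.76, and leaving out 1 library moved it to 1.76 (Sox6- 825 left out) or 0.73 (Sox6- 103 left out). None of the 9 passed over all genes with limma, where 4 were higher at an unadjusted p under 0.05 (5.21% of tested genes were), or with edgeR. DESeq2 called 1, Drd2, higher, where it called 1.31% of genes. The autoreceptor gene Drd2 had a difference of 1.41, the vesicular monoamine transporter gene Slc18a2 of 1.57 and the dopamine transporter gene Slc6a3 of 2.02, with limma adjusted p of 0.158, 0.171 and 0.389. Drd2 had values of 529, 951 and 615 in Sox6+ libraries 103, 825 and 1211, and 209, 418 and 188 in Sox6- libraries 103, 825 and 1211. The Drd2 groups do not overlap, as for 7.86% of tested genes in that direction. Enzymes of the tetrahydrobiopterin pathway, the cofactor supply of Th, differed less, at 0.29 for Pts, 0.18 for Qdpr and -0.21 for Spr, but at 1.16 for Gch1, its rate-limiting enzyme.

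Other genes reported downstream of the factors, or trophic for these neurons, had 9 positive and 8 negative differences and a median of 0.02 among 17 tested. Limma and edgeR called 0 of them, and 4 were higher and 3 lower at an unadjusted p under 0.05 (limma), where 5.21% and 6.17% of tested genes were. DESeq2 called Aldh1a1 and Ret higher and Adcyap1 lower, where it called 1.31% of genes higher and 1.66% lower. Aldh1a1, the retinaldehyde dehydrogenase gene regulated by Pitx3, had a log2 difference of 2.24, and Sncg, gamma-synuclein, one of 2.04 (limma adjusted p = 0.0702 and 0.236). Adcyap1, the PACAP neuropeptide gene, had a difference of -2.85 (limma adjusted p = 0.0702). All 3 had groups that do not overlap, as 9.19% of tested genes do in the direction of Adcyap1. The GDNF receptor gene Ret, a target of Nr4a2, had values of 3123, 5285 and 4943 in Sox6+ libraries 103, 825 and 1211, and 1219, 3192 and 1221 in Sox6- libraries 103, 825 and 1211. Its groups overlap in Sox6- library 825, as those of Pitx3 and En1 do. The complex I subunit genes Ndufs1 and Ndufs3, whose translation engrailed proteins stimulate, differed by 0.02 and -0.01. Ret, Ndufs1, Ndufs3 and the tetrahydrobiopterin genes were named after their values were seen.

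Of 22 cofactor and partner genes, 4 had a positive and 18 a negative log2 difference, with a median of -0.37. Limma and edgeR called 0 of them, and 1 was higher and 7 lower at an unadjusted p under 0.05 (limma), where 5.21% and 6.17% of tested genes were. DESeq2 called 1 higher and 1, Rxrg, lower, where it called 1.31% of genes higher and 1.66% lower. Rxrg, a retinoid X receptor of the family that pairs with Nr4a2, had values of 52.3, 78.6 and 137 in Sox6+ libraries 103, 825 and 1211, and 255, 469 and 397 in Sox6- libraries 103, 825 and 1211, a log2 difference of -2.12 (limma adjusted p = 0.079). Meis2, a TALE homeodomain factor, had 66.1, 0 and 0 in Sox6+ libraries 103, 825 and 1211, and 925, 259.8 and 555 in Sox6- libraries 103, 825 and 1211 (limma adjusted p = 0.184). The adaptor Ldb1, through which LIM homeodomain factors act, differed by -0.10.

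Of 17 relatives of the 8 factors 10 were tested. Among them Lhx2, Lhx6 and Isl1 reached a mean of 10 only through Sox6- libraries, so their direction was fixed by the filter. Otx1, with a Sox6+ mean of 8.80, also reached that level only through its Sox6- values. In Sox6+ library 825, 8 of the 10 were at 0. The median log2 difference of the 10 was -3.65. It moved to -2.17 with a pseudocount of 8, -2.25 with edgeR and -1.89 without Sox6+ library 825, and no direction of the list is read from it. Limma and edgeR called 0 of the 10. At an unadjusted p under 0.05 (limma) 3 were lower, where 6.17% of tested genes were. These 3 were Lhx2, Lhx6 and Isl1, whose direction the filter fixed, so the count is not read as an excess. DESeq2 called Lhx2 and Lhx6 lower, with the same limit, where it called 1.66% of genes lower. Lhx2 had 0.987, 0 and 0 in Sox6+ libraries 103, 825 and 1211, and 30.7, 20.1 and 139 in Sox6- libraries 103, 825 and 1211. Lhx6 was at 0 in all 3 Sox6+ libraries and at 138, 2.01 and 32.5 in Sox6- libraries 103, 825 and 1211, and Isl1 was at 0 in all 3 Sox6+ libraries and at 76.7, 0 and 459 in Sox6- libraries 103, 825 and 1211. These LIM homeodomain genes, known from non-dopaminergic neurons, had limma adjusted p of 0.173, 0.385 and 0.423. Slc17a6, a marker of glutamatergic neurons, lay at 163 to 873 in Sox6+ and 2237 to 4815 in Sox6- libraries, and the part of such markers and of the GABAergic ones above in these values was not tested.

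Genes of early patterning and of progenitors were mostly under the level required for testing. Of 19, 13 lay under a mean of 10, among them Fgf8, Pax5 and Msx2 with no read in any library, and of the 6 tested 2 had a positive and 4 a negative difference, with a median of -0.23. Limma, edgeR and DESeq2 called 0 of the 6. At an unadjusted p under 0.05 (limma) 1, Hes1, was higher, where 5.21% of tested genes were. The mean of Hes1 in Sox6- libraries, 8.14, lies under the level required for testing, which the gene reached only through its Sox6+ values. Hes1, a Notch effector, had values of 38.5, 38.7 and 81.3 in Sox6+ libraries 103, 825 and 1211, and 3.84, 14.1 and 6.49 in Sox6- libraries 103, 825 and 1211 (limma adjusted p = 0.271). Gbx2 was at 0 in all 3 Sox6+ libraries and at 0, 53.4 and 135 in Sox6- libraries 103, 825 and 1211 (limma adjusted p = 0.465). Its groups overlap at 0, and it reached the level required for testing only through Sox6- libraries.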

How the data were processed

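The labels' protocols give papain dissociation, total RNA isolation and TruSeq stranded mRNA libraries. Builds mm10 and GRCm38, and the tools STAR, HTSeq, DESeq2, cutadapt and FastQC, appear in the submitters' processing notes. Their versions and the strand setting of the counting were not given in the sources used here. For each gene and library the authors deposited a normalized signal. Per gene the authors also deposited a log2 fold change (Sox6- over Sox6+), a test statistic (score), and a raw and adjusted p-value. Each signal was a whole multiple of 1 step per library (100.0% of values within 0.01 of a whole number), so reads could be recovered; the step of Sox6- library 825 was 1.007.

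Because these are normalized values, limma (trend, robust) was run on log2(value + 1) for the 13175 genes with a mean of at least 10, with no block and Benjamini-Hochberg adjustment. Intervals are 95%. Exact permutation tests were two-sided. The fit was tested on simulated counts. The rule for named genes took the 8 members, the 3 genes nearest to each in profile, and the 3 list genes of smallest p; some genes that the rule names are not reported here. Members, lists and tests were chosen with earlier results of these data known. Alternatives were other pseudocounts, filters and normalization, edgeR, DESeq2, a block for the library number, and leaving out each library. Positions and exon lengths come from GENCODE M21 on GRCm38, promoter sequences from RefSeq on GRCm38.p6. Map1b was not matched by symbol. Within groups, log2 values of libraries correlated at 0.796 to 0.92, and no library was a copy of another (chi-square per gene of at least 34.4). Software was Python 3.11.15 with scipy 1.17.1, and R 4.3.3 with DESeq2 1.42.0, edgeR 4.0.16 and limma 3.58.1.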

Additional observations from a re-analysis of the deposited data

How the results depend on the processing

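With all 6 libraries, 17 genes were called higher and 23 lower in Sox6+ neurons, and both counts moved with the setting. They were 134 and 133 with the library number as a block, 34 and 35 with a pseudocount of 8, 7 and 14 with no filter, 4 and 20 without trend or robust moderation, 1 and 5 with edgeR, 63 and 57 with edgeR and the block, and 171 and 216 with DESeq2. Leaving out single libraries gave 0 to 59 higher and 1 to 102 lower, with the most without Sox6+ library 103 and the fewest without Sox6- library 1211. Of the members, 1 was called higher with the block, Pitx3 (log2 difference 1.51, limma adjusted p = 0.0322, against 0.0602 to 0.846 over the libraries left out); no other alternative called a member. Same-numbered libraries deviated together at correlations of 0.268, 0.172 and 0.079 for numbers 103, 825 and 1211, the last under the 0.1 needed to treat the numbers as pairs, although each library correlated best with its own number. With the block the limma differences equal the unblocked ones by construction. Among list genes it called Drd2, Ret and Dlk1, among others, higher and Rxrg and Meis2 lower, and edgeR with the block called Drd2 and Dlk1 higher and Rxrg and Isl1 lower. The direction of Isl1 was fixed by the filter.

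Signs reversed for En2 (0.30 without Sox6+ 825, 0.16 without Sox6- 103, range -0.37 to 0.30 over the libraries left out), for Nr4a2 (-0.029 without Sox6- 1211, range -0.029 to 0.41) and for Foxa2 (-0.52 without Sox6+ 825, -0.31 without Sox6- 1211, range -0.52 to 0.81). Relative to the dopamine genes, the difference of Pitx3 was -0.023 with a pseudocount of 8 and ran from -0.075 to 0.082 over the libraries left out, and that of Foxa1 from -0.13 to 0.34. The cause of these changes was not tested. The differences within library numbers, used as a replicate block for the ratios, equal the unpaired ones by construction, and 3 pairs cannot give an exact p under 0.25. The ratio of Lmx1a to Lmx1b rests on 0 to 10 Lmx1b reads per library and is not interpreted.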
